A study of Mus musculus with 36 samples.

Results

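The combination of PAM and LPS (PL) was set against PAM alone (P) and LPS alone (L) in mouse bone marrow-derived dendritic cells, antigen-presenting cells grown in culture from marrow. The libraries were chosen by their labels and comprise 6 of the 36 libraries of the series, 2 in each group. Cells came from female C57BL/6 mice aged 6 to 8 weeks, were grown with GM-CSF at 15 ng per ml, and were exposed to ligand for 6 h. Open chromatin was read by ATAC-seq, whose transposase inserts sequencing adapters where DNA is accessible, on nuclei of 50000 cells per library. The unstimulated group (Ctrl) had the same culture and no ligand. A ligand labelled HMW (H) was given alone, with P (PH), with L (LH) and with both (PLH), and these groups served to look at the same additions in other libraries. No group carries an engineered allele. Ligand doses and the number of mice or cultures behind a library are not stated in the labels. The p-values therefore measure the spread between libraries of a group, pooled over all 36 libraries of the series, which may be technical.

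Toll-like receptors (TLRs) read microbial molecules on dendritic cells. The labels give PAM by that name only, which is commonly used for synthetic lipopeptides sensed by TLR2. LPS, a lipid of the outer membrane of Gram-negative bacteria, is handed by CD14 to TLR4. TLR2 signals through the adaptor MyD88 to the transcription factors NF-kB and AP-1. TLR4 uses MyD88 and, from endosomes, a further adaptor, TRIF, which leads through IRF3 to interferon beta. Secreted interferon then acts on genes that carry interferon-stimulated response elements (ISREs).

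Promoters of 5 genes stand for the patterns described here. They are RefSeq sequences of build GRCm38.p6, the 250 bases before the gene's listed start, each lying inside a tested peak. Capitals mark matches, on either strand, to the letters of ISRE (GAAA, any 2 bases, GAAA), NF-kB (GGGA, any 4 bases, CC) or C/EBP (TTGCNNAA). A match is a run of letters and no evidence of binding. Cxcl10 (chr5:92348890-92349139, minus strand) and Oas3 (chr5:120777660-120777909, minus strand) are shown because PL opened their peaks beyond P but not as far as L, and the ISRE is marked in both, with NF-kB in Cxcl10 as well. Cxcl2 (chr5:90903649-90903898, plus strand) is shown with NF-kB marked because PL lay below P and above L there. Ptgs2 (chr1:150099781-150100030, plus strand), with C/EBP marked, is a start site at which PL exceeded both single ligands. Il6 (chr5:30012864-30013113, plus strand), with NF-kB and C/EBP marked, is a start site at which PL did not pass the test against P or L. The marked runs in Cxcl2 and Il6 join 2 NF-kB matches, 1 on each strand, that overlap.

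Cxcl10: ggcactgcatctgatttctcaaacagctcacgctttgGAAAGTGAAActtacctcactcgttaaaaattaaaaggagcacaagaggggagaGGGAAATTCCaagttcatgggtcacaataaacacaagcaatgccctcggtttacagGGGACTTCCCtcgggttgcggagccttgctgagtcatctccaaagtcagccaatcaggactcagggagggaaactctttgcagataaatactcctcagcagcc
Oas3: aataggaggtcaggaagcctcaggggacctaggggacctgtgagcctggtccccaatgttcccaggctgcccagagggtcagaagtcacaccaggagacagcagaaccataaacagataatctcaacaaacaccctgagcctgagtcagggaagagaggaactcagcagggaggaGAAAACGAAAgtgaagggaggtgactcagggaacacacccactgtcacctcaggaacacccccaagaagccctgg
Cxcl2: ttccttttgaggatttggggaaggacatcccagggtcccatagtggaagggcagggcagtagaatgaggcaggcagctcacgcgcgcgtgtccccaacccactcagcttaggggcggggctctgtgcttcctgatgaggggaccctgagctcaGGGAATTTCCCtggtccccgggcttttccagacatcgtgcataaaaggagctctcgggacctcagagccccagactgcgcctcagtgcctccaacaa
Ptgs2: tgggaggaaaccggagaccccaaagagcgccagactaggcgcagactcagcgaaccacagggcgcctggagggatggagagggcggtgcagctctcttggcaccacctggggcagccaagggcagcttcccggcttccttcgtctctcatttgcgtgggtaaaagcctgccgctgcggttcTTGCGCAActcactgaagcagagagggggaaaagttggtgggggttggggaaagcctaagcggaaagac
Il6: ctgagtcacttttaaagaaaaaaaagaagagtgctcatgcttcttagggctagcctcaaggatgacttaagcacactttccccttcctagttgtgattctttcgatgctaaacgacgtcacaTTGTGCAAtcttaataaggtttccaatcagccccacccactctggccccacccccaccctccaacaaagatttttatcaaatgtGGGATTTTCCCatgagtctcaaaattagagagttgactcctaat

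The ISRE of Cxcl10 begins 213 bases before the start and that of Oas3 75 bases before it. NF-kB matches begin 159 and 103 bases before the Cxcl10 start, 97 before that of Cxcl2 and 44 before that of Il6. C/EBP matches begin 69 bases before the Ptgs2 start and 128 before that of Il6.

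Outside the mitochondrial genome the 6 libraries held 9593847 (PL replicate 2) to 16530431 (L replicate 2) counts. A peak over the mitochondrial genome, left out of all tests, took 50.5% and 48.5% of the counts in P, 44.6% and 44.1% in L and 49.4% and 53.8% in PL. PL and L thus differed in mitochondrial share without overlap, and its part in the difference between PL and L was not tested. In PLH the share was 46.9% and 48.0% and in LH 49.8% and 53.4%, the opposite order. The Spi1 peak at chr2:91081785-91085146, at the gene of the myeloid factor PU.1, held, as counts scaled to a common library total by TMM (the trimmed mean of M-values) and written as CPM, 42.5 and 50.4 CPM in Ctrl, 36.6 and 40.4 in P, 49.2 and 51.9 in L and 37.7 and 32.9 in PL, so this myeloid marker was open in all 8 libraries. Of 186 peaks at marker genes of T, B, NK, neutrophil, erythroid and stromal cells, edgeR and DESeq2 each called 0 between PL and L, with 15 at an unadjusted p under 0.05. Between PL and P, 9 were higher and 8 lower, and 6 of the higher ones were among 38 peaks at B cell genes (15.8%). Of all tested peaks, 1.13% were called between PL and L. Against P, 4.17% of all tested peaks were higher in PL and 4.29% lower. Summed CPM at the B cell genes was 148 to 156 in P, 149 to 167 in L and 157 to 165 in PL, and a part of other cells in the results was not tested.

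In the libraries without H, LPS added to PAM changed far more peaks than PAM added to LPS. Of 119464 tested peaks, 10106 (8.46%) differed between PL and P at an adjusted p under 0.05, 4982 higher in PL (4.17%) and 5124 lower (4.29%). Between PL and L, 1347 (1.13%) differed, 914 higher (0.765%) and 433 lower (0.362%). With H present the order was the reverse: 296 peaks (0.248%) differed between PLH and PH and 652 (0.546%) between PLH and LH. With libraries scaled by total counts instead of TMM, 34.8% of the peaks called between PL and L were higher in PL, against 67.9% with TMM, and the median over all peaks moved to -0.11 on the log2 scale. Adjusted p-values throughout are Benjamini-Hochberg values of edgeR's quasi-likelihood test over all tested peaks. Fold changes are fitted log2 values with their SE, and levels are CPM. In these bulk libraries a smaller share of responding cells and less accessibility per cell cannot be told apart.

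Leaving out any of the 4 libraries of a comparison lowered its count by more than 1.5 times. Between PL and P, 6421 and 4912 peaks were called without P replicate 1 and 2, and 6301 and 4799 without PL replicate 1 and 2. Between PL and L, 582 and 269 were called without L replicate 1 and 2, and 439 and 635 without PL replicate 1 and 2.

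The single ligands differed from each other at 13218 peaks (11.1%), 6201 higher in L (5.19%) and 7017 higher in P (5.87%). PL exceeded both singles at 222 peaks (0.186%) and fell below both at 154 (0.129%). It lay above P and below L at 20 peaks (0.0167%), and below P and above L at 67 (0.0561%). The interaction term (PL minus P minus L plus Ctrl) passed at 8065 peaks (6.75%), positive at 2.57% and negative at 4.18% of all peaks. In all 222 and all 154, both PL libraries lay beyond all 4 libraries of the singles. The same libraries chose these peaks, so this is no separate support, and the share over all tested peaks was not counted.

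**Figure D1:**
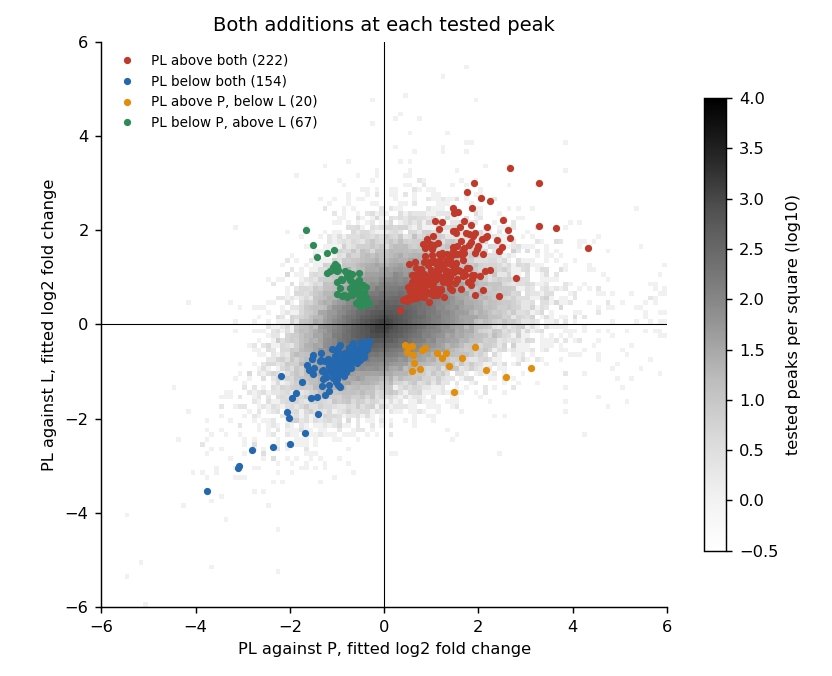
Fitted log2 fold change of PL against P (x axis) and of PL against L (y axis) at the tested peaks, with grey squares for the number of peaks (log10) and coloured points for peaks called in both comparisons; 35 peaks lie outside the axes. The 222 peaks above both singles fill the upper right and the 154 below both the lower left. The PL libraries enter both axes.

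LPS added to PAM raised many peaks at interferon genes. Of 311 peaks within 10 kb of 31 genes of the list of interferon beta and interferon-stimulated genes, 101 (32.5%) were higher in PL than in P and 2 were lower, against 4.17% and 4.29% of all peaks, and the median log2 difference was 0.77 against 0.01 over all peaks. Ifit2, which encodes an RNA-binding antiviral protein, had the lowest p-value: its peak at chr19:34572687-34579247 held 8.85 and 5.02 CPM in Ctrl, 4.88 and 2.82 in P, 59.0 and 67.5 in L and 30.5 and 36.4 in PL. Both PL libraries lay far above both P libraries and below both L libraries, with log2 differences of 3.12 ± 0.16 (adjusted p = 2.66e-41) from P and -0.93 ± 0.12 (adjusted p = 3.03e-09) from L. Rsad2 (viperin, an antiviral enzyme) had a wide peak, at chr12:26438731-26453446, with 25.6 and 28.0 CPM in Ctrl, 31.4 and 34.7 in P, 121 and 129 in L and 89.5 and 74.9 in PL. PL again lay between the singles, with a log2 difference of 1.32 ± 0.10 (adjusted p = 1.56e-26) from P and -0.60 ± 0.09 (adjusted p = 9.73e-07) from L.

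Other sensors and effectors of the antiviral response moved against P in the same way. The peak near Ifih1, which encodes the double-stranded RNA sensor MDA5, held 9.0 and 10.8 CPM in P, 42.2 and 37.3 in L and 35.1 and 29.3 in PL, a log2 difference of 1.71 ± 0.14 (adjusted p = 3.23e-23) from P. Ifit1, a cap-binding antiviral protein, had 3.59 and 4.04 CPM in P, 28.5 and 37.5 in L and 30.0 and 24.0 in PL at chr19:34649632-34654426, with 2.83 ± 0.18 (adjusted p = 6.25e-23) against P. At both peaks PL did not pass the test against L, with -0.29 ± 0.12 (adjusted p = 0.255) and -0.29 ± 0.14 (adjusted p = 0.416). The start site of Oasl1, a member of the oligoadenylate synthetase family, rose from 12.3 and 14.7 CPM in P to 36.7 and 39.4 CPM in PL, a log2 difference of 1.49 ± 0.12 (adjusted p = 4.47e-22). Counted by locus, 8 of 10 peaks at Ifit2, 13 of 20 at Oasl1, 10 of 17 at Cmpk2 and 13 of 42 at Ifih1 were higher in PL than in P. The share over all peaks was 4.17%. Against Ctrl, 24 peaks of the list were higher and 22 lower in P, whereas 137 were higher and 3 lower in L. Of all peaks, 20.5% were called in P against Ctrl, 11.1% higher and 9.45% lower, and 22.3% in L, 11.2% higher and 11.1% lower.

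At the cytokine itself 1 of 9 peaks was higher in PL than in P, beside 4.17% of all peaks. The highest peak near Ifnb1, the interferon beta gene, held 5.49 and 3.47 CPM in P, 7.28 and 5.98 in L and 6.03 and 4.99 in PL at chr4:88515278-88516357. PL overlapped with P and with L there and was called against neither, with log2 differences of 0.32 ± 0.25 (adjusted p = 0.489) from P and -0.25 ± 0.23 (adjusted p = 0.766) from L.

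Some peaks at genes of dendritic cell maturation were higher in PL than in P as well. Of 347 peaks at 30 such genes, 43 (12.4%) were higher in PL than in P and 5 (1.44%) lower, against 4.17% and 4.29% of all peaks. Cd274, which encodes the inhibitory ligand PD-L1, had 6.64 and 6.86 CPM in P, 21.5 and 22.2 in L and 18.9 and 22.8 in PL at chr19:29388135-29391638, a log2 difference of 1.62 ± 0.17 (adjusted p = 4.24e-15) from P. An intragenic peak of Il15, a cytokine for NK and memory T cells, had 6.71 and 9.82 CPM in P, 17.7 and 19.8 in L and 24.5 and 19.8 in PL, with 1.43 ± 0.16 (adjusted p = 1.30e-12). At both peaks the PL and L libraries overlapped or nearly so, and 8 of 19 peaks at Cd274 and 9 of 18 at Il15 were higher in PL than in P. Ccr7, the receptor that guides dendritic cells to lymph nodes, had 39.1 and 25.9 CPM in P, 38.5 and 55.4 in L and 39.5 and 52.0 in PL at its highest peak. The lowest PL library was at the level of the highest P library, and PL against P was not called (0.49 ± 0.20, adjusted p = 0.150); this comparison passed the test in 5 of 16 alternative settings.

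Nos2, which encodes inducible nitric oxide synthase, was the locus of the inflammatory list with the most peaks gained over P. Of its 19 peaks 14 were higher in PL than in P, against 4.17% of all peaks. The peak at chr11:78959292-78963606, which also overlaps Lgals9, held 2.84 and 2.22 CPM in Ctrl, 2.98 and 2.60 in P, 25.6 and 17.7 in L and 27.4 and 35.5 in PL. P was at the level of Ctrl there, and PL exceeded P by 3.49 ± 0.21 (adjusted p = 3.53e-33) but did not pass the test against L (0.54 ± 0.16, adjusted p = 0.0814). At chr11:78949235-78949947, inside the gene, the values were 0 and 0.433 CPM in P, 1.84 and 1.19 in L and 4.16 and 5.09 in PL, with log2 differences of 4.32 ± 0.61 (adjusted p = 1.30e-08) from P and 1.62 ± 0.45 (adjusted p = 0.0430) from L. The call against L at this peak was lost without any 1 of the 4 libraries, under total-count scaling and with abundance-dependent offsets.

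Among peaks with a mean of at least 1 CPM and within 10 kb of a gene, those with the largest fitted gains over P were nearly closed in P. At an Acyp2 peak (chr11:30648153-30648718; acylphosphatase 2) P had 2 counts in all, and the ratio of PL to P per depth was 33.5 (exact interval 8.87 to 283). A Cmpk2 peak (chr12:26478540-26479374; a mitochondrial nucleotide kinase induced by interferon) also had 2, with a ratio of 26.1 (exact interval 6.83 to 222). Peaks inside Rnf213, a ubiquitin ligase gene, and Nbeal1 had 3 counts in P, and the ratios were 24.2 (exact interval 7.92 to 120.5) and 22.3 (exact interval 7.27 to 111). These intervals are 95% and cover counting error only. At all 4 peaks both PL libraries exceeded both P libraries, which was a condition of their choice. Ctrl was not closed: the values were 0.656 and 1.16 CPM in Ctrl at Acyp2 and 0.765 and 1.93 CPM in Ctrl at Rnf213.

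LPS added to PAM also lowered some peaks that stood high in P alone. Of the 5124 peaks lower in PL than in P, 1501 were higher in P than in Ctrl and 2037 lower in L than in Ctrl. Of all peaks, 11.1% were called in each of these directions. At 1625 of the 5124, and at 82088 of all 119464 peaks, neither single was called against Ctrl. The fractalkine receptor gene Cx3cr1 held 19.0 and 16.3 CPM in Ctrl, 39.2 and 50.3 in P, 27.8 and 27.3 in L and 23.5 and 24.4 in PL at chr9:120054485-120055643. P stood above the other groups and PL lay -0.90 ± 0.13 (adjusted p = 7.61e-08) from it. Dusp4, a MAP kinase phosphatase, had 3.39 and 3.28 CPM in Ctrl, 9.16 and 14.2 in P, 6.01 and 4.58 in L and 4.52 and 4.18 in PL, with -1.42 ± 0.27 (adjusted p = 5.13e-05) against P. In both genes PL did not pass the test against L (-0.20 ± 0.14, adjusted p = 0.629 and -0.27 ± 0.28, adjusted p = 0.804).

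Few peaks of the receptor genes differed. Of 217 peaks at 23 receptor and adaptor genes of TLR2 and TLR4, 12 (5.53%) were lower in PL than in P and 5 (2.30%) higher, which is near the share of all peaks. A Tlr4 peak at chr4:66851601-66852559 held 28.2 and 24.5 CPM in Ctrl, 26.6 and 26.6 in P, 11.0 and 11.8 in L and 12.8 and 10.8 in PL: L and PL were low, P was at the level of Ctrl, and PL against P gave -1.16 ± 0.17 (adjusted p = 1.79e-08). The highest Tlr4 peak, chr4:66827257-66829357, did not pass the test, with -0.23 ± 0.11 (adjusted p = 0.174) against P and -0.17 ± 0.11 (adjusted p = 0.585) against L. Cd14, the LPS co-receptor, had 26.3 and 23.2 CPM in Ctrl, 43.9 and 44.1 in P, 23.2 and 21.3 in L and 26.3 and 27.9 in PL at chr18:36725392-36727100 (-0.70 ± 0.13, adjusted p = 1.20e-05 against P), so that P stood above Ctrl, L and PL. The highest peak within 10 kb of Cd14 lies inside Tmco6 (chr18:36733406-36735700) and was not called against P or L, with -0.32 and 0.01. Tlr2 showed the same order at chr3:83844663-83845829, with 27.5 and 25.4 CPM in Ctrl, 44.8 and 43.1 in P, 33.2 and 31.2 in L and 35.0 and 25.2 in PL and -0.53 ± 0.12 (adjusted p = 6.10e-04) against P, a call lost without PL replicate 2.

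PAM added to LPS opened peaks where PAM acts alone. Of the 914 peaks higher in PL than in L, 94.2% had the same direction in P against Ctrl, called or not, a comparison that shares no library with it, against 57.8% of all peaks with the same direction in both. For LPS added to PAM the share was 88.3% of the 4982 peaks higher in PL and 75.3% of the 5124 lower ones that had the direction of L against Ctrl, beside 61.4% of all peaks. With the same limits of 1 CPM and 10 kb, the largest fitted gain was 7583 bases from Bcl2a1c (chr9:114338161-114338434), a member of the BCL2 family, where L had 3 counts in all and the ratio of PL to L was 21.6 (exact interval 6.94 to 108). Aldh1l2, a mitochondrial folate enzyme, had 0.219 and 0.675 CPM in Ctrl, 4.20 and 3.90 in P, 0.424 and 0.377 in L and 4.16 and 3.16 in PL at chr10:83529216-83529682. L was nearly closed like Ctrl, PL differed from P by -0.13 ± 0.37 (adjusted p = 0.881), and PL exceeded L by 3.18 ± 0.48 (adjusted p = 1.56e-06). A Ppef2 peak (chr5:92229551-92230026; a calcium-binding phosphatase) had the same form, with 5.19 and 5.06 CPM in P, 0.707 and 0.108 in L and 4.16 and 2.65 in PL and 3.17 ± 0.52 (adjusted p = 1.08e-05) against L. The calls at Bcl2a1c and Ppef2 were lost without L replicate 2.

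Feedback inhibitors and NF-kB genes carried several of these gains. Of 285 peaks at 24 feedback inhibitors 8 (2.81%) were higher in PL than in L, against 0.765% of all peaks. In the other direction edgeR called 0 (11 at an unadjusted p under 0.05) and DESeq2 1. Socs3, an inhibitor of cytokine receptor signals, had 3.93 and 3.18 CPM in Ctrl, 18.2 and 19.0 in P, 10.1 and 12.6 in L and 19.3 and 20.3 in PL at chr11:117977334-117978488: P and PL stood together above L, with 0.79 ± 0.16 (adjusted p = 0.00110) for PL against L. Irak3, a brake on MyD88 signalling, had 6.18 and 4.69 CPM in P, 2.12 and 2.64 in L and 5.96 and 6.01 in PL at chr10:120204440-120205073, with 1.31 ± 0.28 (adjusted p = 0.00191). Both calls were lost without L replicate 1. Inside Nfkb1, which encodes the NF-kB subunit p105/p50, the peak at chr3:135640041-135640780 held 1.53 and 1.25 CPM in Ctrl, 21.8 and 22.4 in P, 16.4 and 15.5 in L and 26.0 and 22.2 in PL. Both singles opened it far beyond Ctrl, and PL was 0.60 ± 0.14 (adjusted p = 0.00901) from L and 0.13 ± 0.14 (adjusted p = 0.647) from P. That call against L was lost without L replicate 1 or 2 or PL replicate 1 and under total-count scaling. Under that scaling the feedback list had 5 peaks higher and 3 lower. The list of induced transcription factors turned from 5 higher and 1 lower among 301 peaks to 1 higher and 4 lower. The split over all peaks turned too: 557 of 1601 called peaks (34.8%) were higher in PL than in L, against 67.9% with TMM.

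Inflammatory loci were among those at which PL exceeded both single ligands. The list of inflammatory cytokines and chemokines also holds the enzyme genes Nos2 and Ptgs2. Nos2 had the most peaks higher than in P, and Ptgs2 the most above both. Of 220 peaks at the list's 28 genes, 12 were above both, while 42 (19.1%) were higher than in P and 19 (8.64%) higher than in L. Of all peaks, 0.186% were above both, 4.17% higher than in P and 0.765% higher than in L. In the other direction 8 were lower than in P, and edgeR and DESeq2 each called 0 lower than in L, with 4 at an unadjusted p under 0.05. The 19 became 8 and 2 without L replicate 1 and 2, and 3 and 9 without PL replicate 1 and 2; whether these were the same peaks was not counted. Summed CPM over the list was 940.5 to 954 in Ctrl, 1545 to 1621 in P, 1544 to 1603 in L and 1811 to 1814 in PL. Loci differed: beside Ptgs2, described below, Il6 and Nos2 each had 2 peaks above both and Ccl5 1. Il1a, Il1b, Il12b, Ccl3, Ccl4, Cxcl1 and Cxcl2 had 0. Downstream of Il6, the gene of interleukin-6, the peak at chr5:30021251-30023211 held 0.874 and 0.965 CPM in Ctrl, 2.29 and 4.98 in P, 4.52 and 3.77 in L and 12.2 and 10.7 in PL. Both PL libraries were above all others, with 1.65 ± 0.27 (adjusted p = 1.54e-06) against P and 1.48 ± 0.26 (adjusted p = 7.72e-05) against L. The peak over the Il6 start, whose sequence is shown above, held 6.88 and 8.88 CPM in Ctrl, 19.9 and 20.7 in P, 24.9 and 24.2 in L and 28.2 and 23.8 in PL and was not called (0.37 ± 0.14, adjusted p = 0.0791 against P and 0.09 ± 0.13, adjusted p = 0.871 against L). Opening beyond both singles was thus called at a distal peak of Il6 and not at its promoter, though the difference between these peaks was not tested.

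Ptgs2, which encodes cyclooxygenase-2, the enzyme that starts prostaglandin synthesis, had 5 of its 8 peaks above both singles, against 0.186% of all peaks. The peak over its start (chr1:150099401-150100484) held 13.5 and 13.0 CPM in Ctrl, 16.2 and 16.6 in P, 16.1 and 17.5 in L and 25.9 and 25.7 in PL. All 4 libraries of the singles lay together, both PL libraries stood above them, and the differences were 0.65 ± 0.15 (adjusted p = 7.37e-04) from P and 0.62 ± 0.14 (adjusted p = 0.00721) from L. A peak inside the gene at chr1:150103923-150104726 held 2.44 and 0.939 CPM in P, 1.63 and 0.863 in L and 5.45 and 4.79 in PL, with 1.61 ± 0.40 (adjusted p = 0.00319) and 2.07 ± 0.41 (adjusted p = 6.40e-04). The peak 19 bases past the gene held 1.07 and 2.24 CPM in P, 1.70 and 1.40 in L and 4.67 and 5.09 in PL. At both peaks PL stood above every library of the singles. The peak past the gene lost its call against L without any 1 of the 4 libraries, and against P without P replicate 1. The call against L at the start was lost without L replicate 1 or 2 or PL replicate 1, and under total-count scaling, and that at the peak inside the gene was lost without L replicate 2, or against P without P replicate 2.

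Slamf1, a signalling receptor of immune cells, and Saa3, an acute-phase protein gene, were chosen after their values were seen. Near Slamf1 (chr1:171761684-171763284) the values were 5.46 and 6.75 CPM in Ctrl, 15.0 and 13.0 in P, 15.8 and 14.9 in L and 34.6 and 33.6 in PL. P and L both stood above Ctrl and PL above either, by 1.28 ± 0.14 (adjusted p = 6.68e-13) and 1.16 ± 0.14 (adjusted p = 4.36e-10). Saa3 had 10.9 and 9.94 CPM in Ctrl, 22.0 and 21.6 in P, 23.5 and 19.0 in L and 42.6 and 37.9 in PL at chr7:46710262-46713566, with 0.89 ± 0.14 (adjusted p = 4.73e-07) and 0.93 ± 0.14 (adjusted p = 1.06e-06). Tnfsf15, which encodes the TNF-family ligand TL1A, had 2 such peaks, and the one at chr4:63733434-63742661 held 21.1 and 19.3 CPM in P, 17.6 and 17.1 in L and 36.8 and 36.1 in PL, with 0.85 ± 0.12 (adjusted p = 4.26e-08) and 1.07 ± 0.12 (adjusted p = 6.34e-11). The calls against P and against L at these 3 peaks, at the distal Il6 peak and at an Aopep peak (chr13:63205676-63206415; an aminopeptidase gene, 1.30 and 1.16 CPM in P, 1.06 and 1.35 in L and 5.10 and 4.28 in PL) held in all 16 alternative settings.

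Regulators of inflammation were among the peaks above both. Tnfaip3 encodes A20, a ubiquitin-editing inhibitor of NF-kB. Its peak at chr10:19001098-19005823 held 6.01 and 6.08 CPM in Ctrl, 21.5 and 16.8 in P, 12.7 and 11.2 in L and 27.1 and 33.2 in PL, and PL exceeded P by 0.65 ± 0.15 (adjusted p = 7.49e-04) and L by 1.33 ± 0.15 (adjusted p = 4.39e-11); the call against P was lost without P replicate 2 or PL replicate 2. Il1rn, the interleukin-1 receptor antagonist, had 4.15 and 3.67 CPM in Ctrl, 7.10 and 7.94 in P, 19.3 and 17.7 in L and 31.2 and 25.7 in PL at chr2:24350286-24353678. The order Ctrl, P, L, PL held with no overlap, with 1.92 ± 0.15 (adjusted p = 5.49e-23) and 0.63 ± 0.14 (adjusted p = 0.00264). The wide peak over Ccl5 (chr11:83521831-83527834), a chemokine for T cells that here shares its peak with Heatr9, held 5.14 and 4.44 CPM in Ctrl, 11.4 and 13.5 in P, 49.6 and 39.0 in L and 69.1 and 65.1 in PL, with 2.43 ± 0.12 (adjusted p = 4.26e-42) and 0.61 ± 0.11 (adjusted p = 5.93e-05). The call against L was lost without L replicate 2 at Ccl5, and without L replicate 2 or PL replicate 1 at Il1rn.

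Over the 222 peaks above both singles the median log2 difference from Ctrl was 1.18 in P, 1.15 in L and 2.47 in PL. The choice of these peaks placed PL above P and L. The medians of PL were 1.17 against P and 1.13 against L, values that the choice of these peaks used. They lay within 1 kb of a listed start in 6.16% of cases, against 13.1% of all tested peaks. Among peaks with a mean of at least 1 CPM and within 10 kb of a gene, those with large fitted values were weakly open: inside Alms1, a centrosomal protein gene (chr6:85590173-85590465), the values were 0.687 and 0.217 CPM in P, 0.636 and 0.485 in L and 3.30 and 1.83 in PL, and beside Ptx3, a secreted pattern recognition protein that shares the locus with Veph1 (chr3:66221860-66222316), they were 0.763 and 0.433 CPM in P, 0.707 and 0.593 in L and 2.15 and 3.36 in PL.

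**Figure D2:**
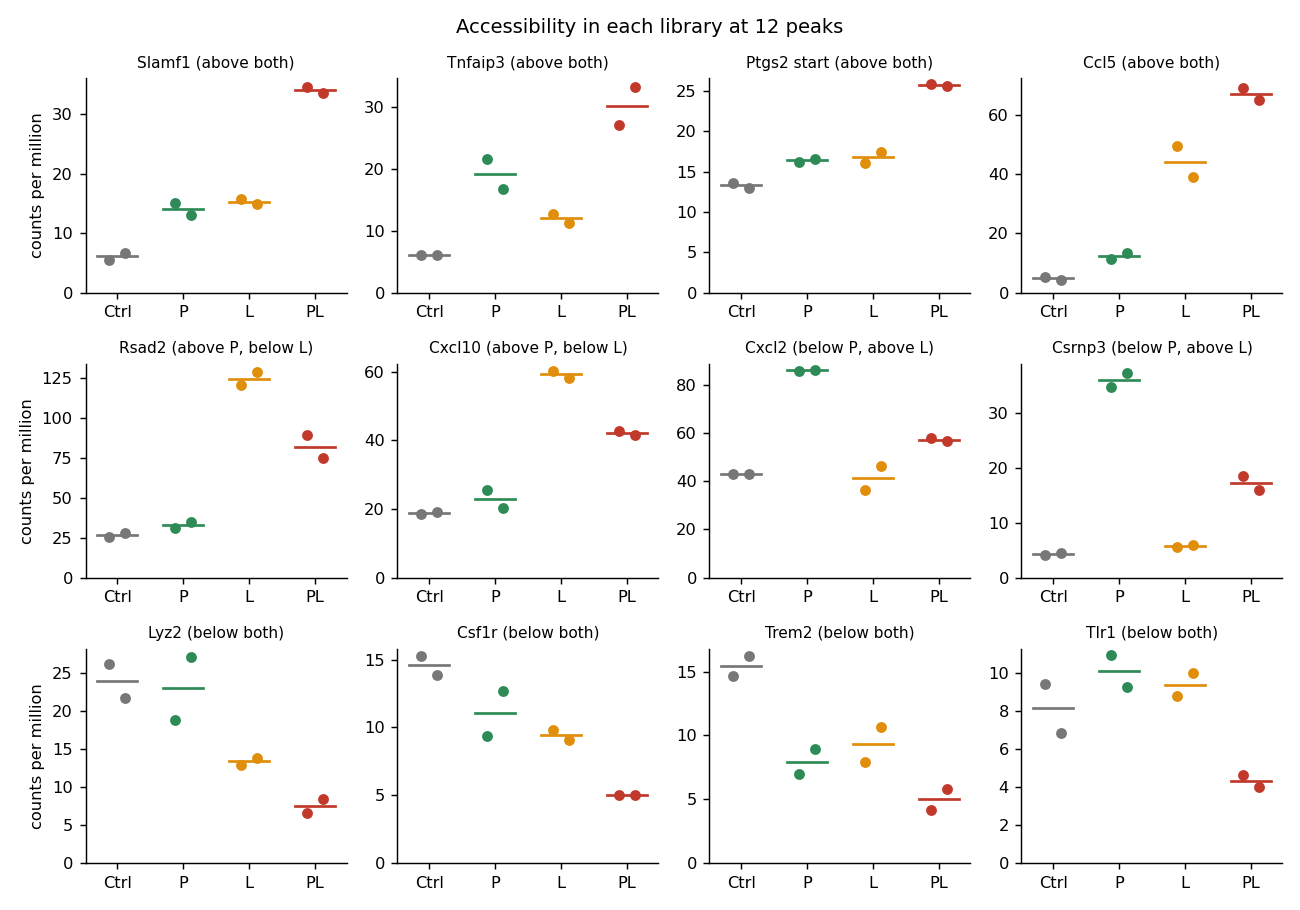
CPM in each library (points) with the mean of the 2 libraries (lines) for Ctrl, P, L and PL at 12 peaks, each axis starting at 0. PL is the highest group in the top row, lies between P and L in the middle row and is the lowest in the bottom row.

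PL fell below both singles at 7 peaks of resting myeloid genes. Of 337 peaks at 29 such genes, 24 (7.12%) were lower in PL than in P and 6 (1.78%) higher, while 8 (2.37%) were lower than in L and 1 higher. Of all peaks, 4.29% were lower than in P, 0.362% lower than in L and 0.129% below both. Lyz2, which encodes lysozyme M, had 26.2 and 21.7 CPM in Ctrl, 18.8 and 27.2 in P, 12.9 and 13.9 in L and 6.53 and 8.35 in PL at chr10:117276641-117278695. L reduced the peak where P did not, and PL was lower still, by -1.64 ± 0.20 (adjusted p = 2.18e-11) and -0.86 ± 0.20 (adjusted p = 0.00764) against P and L. The neighbouring peak past the gene, chr10:117275225-117276573, held 21.3 and 16.1 CPM in Ctrl, 12.9 and 22.0 in P, 8.69 and 7.66 in L and 4.74 and 2.75 in PL, and the one over the Lyz2 start held 21.7 and 25.1 CPM in P, 15.0 and 16.1 in L and 11.1 and 11.6 in PL. At the start the call was made against P (-1.04 ± 0.17, adjusted p = 1.01e-06) and not against L (-0.46 ± 0.17, adjusted p = 0.208).

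Csf1r, the receptor of the macrophage growth factor M-CSF, had 2 peaks below both singles. That at chr18:61119920-61121236 held 15.3 and 13.9 CPM in Ctrl, 9.38 and 12.7 in P, 9.82 and 9.06 in L and 5.02 and 4.99 in PL, with -1.14 ± 0.23 (adjusted p = 1.29e-04) against P and -0.91 ± 0.23 (adjusted p = 0.0173) against L. P and L each lay below Ctrl and PL lay below all of them. Trem2, a lipid-sensing receptor of macrophages, had 14.6 and 16.2 CPM in Ctrl, 6.94 and 8.96 in P, 7.91 and 10.7 in L and 4.16 and 5.81 in PL over its start, with -0.70 ± 0.24 (adjusted p = 0.0434) and -0.93 ± 0.23 (adjusted p = 0.0129). Mrc1, the mannose receptor, had 21.1 and 23.6 CPM in Ctrl, 17.3 and 14.8 in P, 14.2 and 14.4 in L and 7.32 and 10.9 in PL at chr2:14249786-14250613, with -0.84 ± 0.19 (adjusted p = 5.84e-04) and -0.67 ± 0.18 (adjusted p = 0.0359). Tlr1, which pairs with TLR2, had 9.40 and 6.85 CPM in Ctrl, 10.9 and 9.24 in P, 8.76 and 9.97 in L and 4.59 and 3.97 in PL at chr5:64922870-64923457. The singles stood in or above the range of Ctrl there, whereas both PL libraries were lowest, with -1.22 ± 0.28 (adjusted p = 9.14e-04) and -1.12 ± 0.28 (adjusted p = 0.0132).

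The number of peaks below both singles ranged from 18 to 121 when 1 library was left out, and that above both from 55 to 162. With total-count scaling 297 lay below both and 137 above both. The calls against L at Lyz2 (chr10:117276641-117278695), Trem2 and Mrc1 were lost without L replicate 2 or without PL replicate 1, at Tlr1 without those or PL replicate 2, at Mrc1 also without L replicate 1, and at Csf1r without any 1 of the 4 libraries. The call against P at Trem2 was lost in 7 of 16 alternative settings, among them without P replicate 2 or PL replicate 1 and with DESeq2. Over the 154 peaks the median log2 difference from Ctrl was -0.29 in P, -0.36 in L and -1.17 in PL. The choice of these peaks placed PL below P and L. Among peaks with a mean of at least 1 CPM and within 10 kb of a gene, those with large fitted losses were weak: inside Inpp5d, the lipid phosphatase SHIP1, PL held 4 counts in all (1.37 and 1.59 CPM in P, 1.41 and 1.46 in L and 0.287 and 0 in PL), and inside Tpst1, a tyrosine sulfotransferase, the values were 1.60 and 1.52 CPM in P, 2.54 and 1.99 in L and 0.287 and 0.509 in PL.

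Further peaks were lower in PL than in L and not called against P. Nr1h3, the oxysterol receptor LXR alpha, had 2.95 and 7.62 CPM in Ctrl, 8.39 and 6.50 in P, 11.2 and 11.0 in L and 5.02 and 3.87 in PL over its start (chr2:91194531-91195378), with -1.30 ± 0.26 (adjusted p = 0.00129) against L, a call lost without PL replicate 2. At the Spi1 peak named above PL was -0.51 ± 0.11 (adjusted p = 0.00206) from L and -0.12 ± 0.11 (adjusted p = 0.579) from P, and both Ctrl and L were higher. Traf3, an adaptor of the interferon arm, had 27.8 and 24.2 CPM in P, 44.7 and 44.2 in L and 30.9 and 27.5 in PL over its start (-0.60 ± 0.12, adjusted p = 4.39e-04 against L, lost without PL replicate 2). Il15ra, which presents interleukin-15, had 15.1 and 16.1 CPM in P, 24.1 and 26.9 in L and 17.2 and 15.2 in PL inside the gene (-0.65 ± 0.14, adjusted p = 0.00179 against L). The calls at Spi1 and Il15ra were lost without L replicate 2 or PL replicate 2. At Traf3 and Il15ra both L libraries stood above those of P and PL, and PL stood in the range of P or close to it.

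Interferon genes were among the loci at which PL was lower than L. In that list 7 of 311 peaks (2.25%) were lower in PL than in L and 2 (0.643%) higher, against 0.362% and 0.765% of all peaks, and the median was -0.13. In libraries that also had H, 1 peak of the list was higher and 1 lower in PLH than in PH (all peaks: 0.158% and 0.0896%), with a median of 0.08, beside 101, 2 and 0.77 for PL against P. Against LH, 12 were lower in PLH than in LH and 1 higher (all peaks: 0.203% lower and 0.343% higher). The peak over Cxcl10, a chemokine for activated T cells whose promoter is shown above, held 18.6 and 19.0 CPM in Ctrl, 25.6 and 20.3 in P, 60.3 and 58.2 in L and 42.8 and 41.5 in PL at chr5:92344162-92349984. PL lay between P and L with no overlap, by 0.88 ± 0.11 (adjusted p = 1.80e-10) and -0.49 ± 0.10 (adjusted p = 0.00184). The peak over the start of Oas3, an oligoadenylate synthetase, held 17.6 and 24.3 CPM in Ctrl, 19.1 and 22.7 in P, 50.3 and 55.1 in L and 33.9 and 38.9 in PL, with 0.80 ± 0.12 (adjusted p = 1.02e-07) and -0.54 ± 0.11 (adjusted p = 0.00129). At Cmpk2 (chr12:26476434-26478083), next to Rsad2, the values were 2.73 and 1.45 CPM in Ctrl, 0.305 and 0.867 in P, 7.14 and 8.36 in L and 4.02 and 3.06 in PL; P was below Ctrl there, PL between the singles, and the differences were 2.58 ± 0.39 (adjusted p = 1.46e-07) and -1.11 ± 0.26 (adjusted p = 0.00779).

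Over the 20 peaks above P and below L the median log2 difference from Ctrl was -0.53 in P, 1.33 in L and 0.63 in PL. The choice of these peaks fixed that order. Beyond the interferon list they included the start of Psmb10, an immunoproteasome subunit (13.2 and 15.0 CPM in P, 26.4 and 28.8 in L and 20.4 and 19.5 in PL), and of Mpeg1, the pore-forming perforin-2 of phagocytes (6.48 and 6.86 CPM in P, 17.0 and 19.2 in L and 10.4 and 10.2 in PL). In both genes both PL libraries lay between those of P and L. The calls against L at Ifit2 and Rsad2 held in all 16 alternative settings. That at Cxcl10 was lost without PL replicate 2, that at Oas3 without L replicate 2 or PL replicate 1, and that at Cmpk2 without L replicate 2 or either PL library. At Psmb10 and Mpeg1 the calls against L were lost without L replicate 2 or either PL library and those against P without P replicate 1 or PL replicate 1. The Psmb10 call against L was also lost without L replicate 1, and the Mpeg1 call against P without P replicate 2 or PL replicate 2. Counting every kind of alternative, the Psmb10 call against L was lost in 9 of 16.

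At 67 peaks the order was reversed, with P highest and PL above L. Cxcl2, a neutrophil chemokine whose promoter is shown above, had 42.9 and 43.1 CPM in Ctrl, 85.8 and 86.2 in P, 36.5 and 46.2 in L and 57.9 and 56.5 in PL at chr5:90902942-90907471. L left it at the level of Ctrl and PL reached 0.46 ± 0.10 (adjusted p = 0.00241) above L and -0.59 ± 0.10 (adjusted p = 1.62e-06) from P. Csrnp3, a nuclear protein gene chosen after its values were seen, had the same order (chr2:65851729-65852863), with 4.15 and 4.53 CPM in Ctrl, 34.6 and 37.3 in P, 5.65 and 5.93 in L and 18.5 and 16.0 in PL, -1.05 ± 0.17 (adjusted p = 6.84e-07) against P and 1.58 ± 0.19 (adjusted p = 4.36e-10) against L. Both calls at Csrnp3 held in all 16 alternative settings. Trem1, an amplifying receptor of myeloid cells, had 4.59 and 5.60 CPM in Ctrl, 22.7 and 26.3 in P, 9.96 and 9.60 in L and 17.1 and 13.3 in PL, and near Fosl2, an AP-1 subunit gene, the values were 3.50 and 4.53 CPM in Ctrl, 16.3 and 21.8 in P, 7.28 and 6.58 in L and 13.6 and 9.98 in PL. The calls against L at Cxcl2, Trem1 and Fosl2 were lost under total-count scaling and when L replicate 1 or PL replicate 1 was left out. Over the 67 peaks the median log2 difference from Ctrl was 1.98 in P, 0.46 in L and 1.33 in PL. The choice of these peaks fixed that order.

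**Figure D3:**
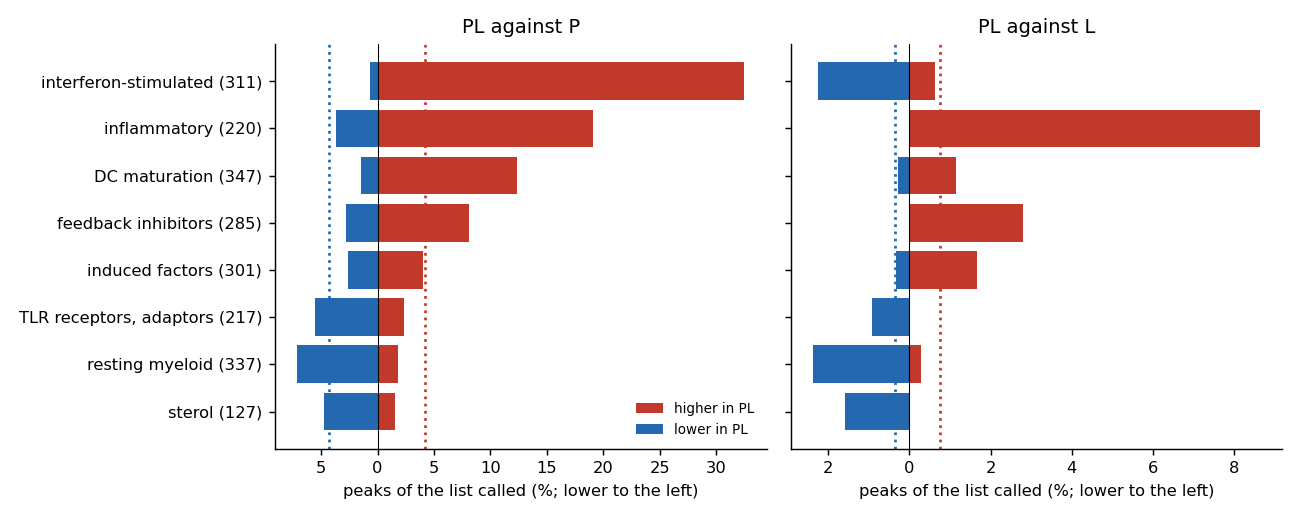
Share of each list's peaks (number in brackets) called higher in PL (red, to the right) or lower (blue, to the left) against P and against L; dotted lines give the share over all tested peaks. The interferon list leads against P with 32.5% higher, and the inflammatory list leads against L with 8.64% higher; the horizontal scales differ.

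Where the singles differed, PL lay nearer to L at most peaks. The median log2 differences from Ctrl at the 6201 peaks higher in L were -0.40 in P, 0.78 in L and 0.49 in PL, and at the 7017 peaks higher in P they were 0.74, -0.28 and 0.06. At the 6201 peaks higher in L than in P, PL was higher than P at 2932 (47.3%) and lower than L at 167 (2.69%). At the 7017 peaks higher in P, PL was lower than P at 2858 (40.7%) and higher than L at 517 (7.37%). PL lay on the L side of the midpoint at 80.1% of the former and 67.9% of the latter. The median position on the way from P to L was 0.783 (quartiles 0.572 and 0.983) and 0.668 (0.415 and 0.937). The comparisons share the P and L libraries, which chose these peaks, and the PL libraries did not enter the choice.

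**Figure D4:**
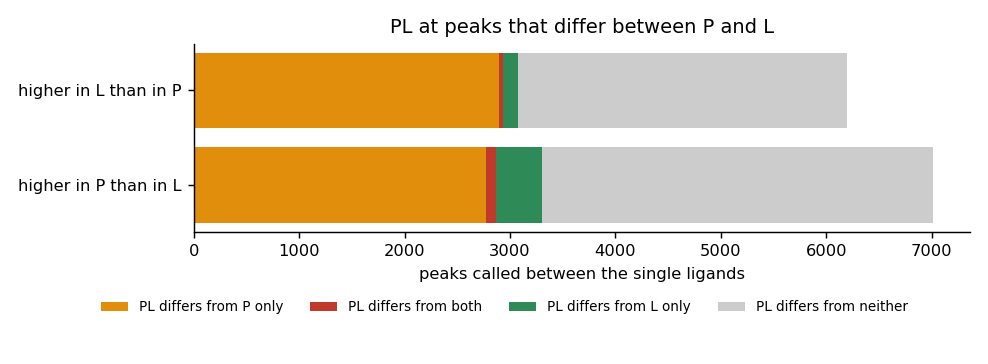
Number of peaks that differ between the single ligands, split by direction and by whether PL differs from P only, from both, from L only or from neither. Of the 6201 peaks higher in L, PL differed from P only at 2893 and from L only at 147; of the 7017 higher in P, from P only at 2776 and from L only at 445.

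The same additions were looked at in libraries that share none with P, L or PL. Of the 4982 peaks higher in PL than in P, 78.0% were also higher in PLH than in PH, and of the 5124 lower peaks 86.8% were lower, against 62.3% of all peaks with the same direction in both comparisons. Of the 914 peaks higher in PL than in L, 92.1% were higher in PLH than in LH, and of the 433 lower ones 75.3% were lower, against 55.7% of all peaks. For the 222 peaks above both, the same direction held at 73.4% when L was added to PH and at 92.8% when P was added to LH. For the 154 below both it held at 81.8% and 86.4%. Few of these passed the test with H present, where 296 peaks (0.248%) differed between PLH and PH, 0.158% higher and 0.0896% lower, and 652 (0.546%) between PLH and LH. LPS added to PH thus changed fewer peaks than PAM added to LH, the reverse of the order without H.

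**Figure D5:**
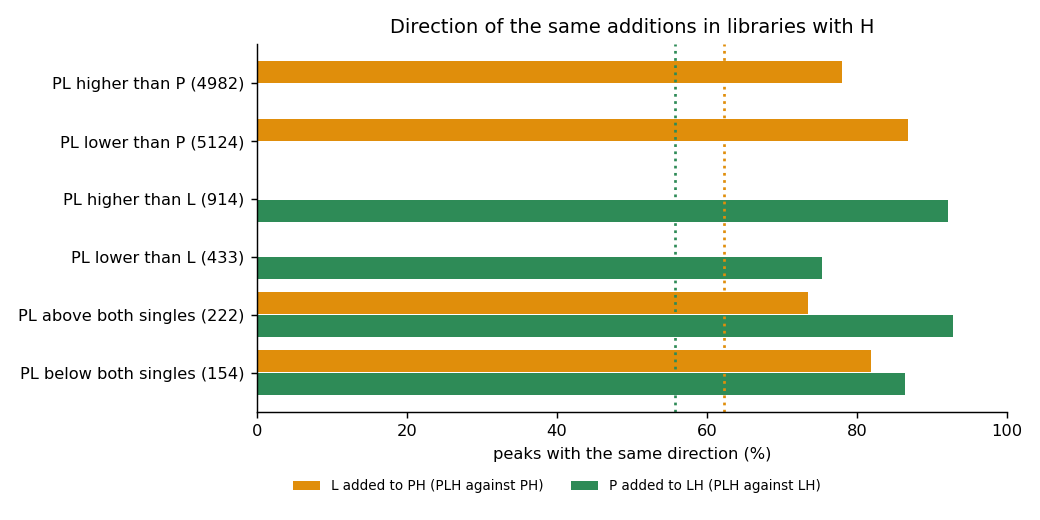
Share of the peaks called for PL that have the same direction when L is added to PH (orange) or P to LH (green), with the number of peaks in brackets and dotted lines for all tested peaks. The bars range from 73.4% to 92.8%, above the lines at 62.3% and 55.7%.

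Single peaks with H present followed or left this pattern. Slamf1 differed by 0.71 in PLH against PH and by 0.99 against LH, and Saa3 by 0.41 and 0.67. At the distal Il6 peak the values were 0.18 and 0.55, and at the Ptgs2 start 0.11 and 0.26. Tnfsf15 had -0.45 against PH and 0.69 against LH. At Ifit2, Rsad2 and Cxcl10 PLH lay -0.74, -0.68 and -0.43 from LH. Against PH, the 311 peaks of the interferon list had a median of 0.08, with 1 called higher and 1 lower. Of all peaks, 0.158% were called higher and 0.0896% lower in PLH than in PH. The values at single peaks are fitted log2 differences, given here without their tests.

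At 4 cytokine genes and Nfkbia the highest peaks were not called between PL and either single. Tnf, the gene of tumour necrosis factor, had 23.3 and 22.0 CPM in Ctrl, 48.9 and 59.8 in P, 53.6 and 61.8 in L and 47.7 and 56.3 in PL at chr17:35197130-35203029; all 3 stimulated groups lay above Ctrl and overlapped. PL differed by -0.07 ± 0.10 (adjusted p = 0.753) from P and -0.16 ± 0.10 (adjusted p = 0.597) from L. Il12b, a subunit of interleukin-12, had 6.56 and 6.85 CPM in Ctrl, 36.8 and 35.5 in P, 27.5 and 26.8 in L and 39.1 and 32.9 in PL at a peak 9330 bases away, with 0.00 ± 0.12 (adjusted p = 0.997) and 0.41 ± 0.12 (adjusted p = 0.0501); the latter passed the test in 6 of 16 alternative settings. Il10, an anti-inflammatory cytokine, had 12.9 and 13.0 CPM in P, 10.2 and 14.5 in L and 14.4 and 15.3 in PL, with 0.20 and 0.25. Il1b, the gene of interleukin-1 beta, had 15.0 and 17.7 CPM in P, 16.8 and 17.3 in L and 14.0 and 17.0 in PL, with -0.09 and -0.15. Nfkbia, which encodes the NF-kB inhibitor IkB alpha, had 92.8 and 92.5 CPM in Ctrl, 94.5 and 86.6 in P, 83.9 and 98.3 in L and 86.1 and 93.7 in PL over its start, with -0.01 and -0.02. None of the differences at these highest peaks of Il10, Il1b and Nfkbia was called. At that of Il10 both PL libraries lay above both P libraries, whereas at those of Il1b and Nfkbia PL overlapped with each single. Of all 11 peaks at Il1b, 2 were higher in PL than in L and 0 lower, against 0.765% and 0.362% of all tested peaks. Between PL and P 0 of the 11 were called.

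Promoter letters were counted by class. Among 14484 RefSeq promoters, taken as 250 bases before to 50 after the start, that overlap a tested peak, the ISRE letters occurred in 3.28%, against 3.44% of all 32851. They occurred in 12.9% (54 of 418) of those at peaks higher in PL than in P, in 1.72% (10 of 582) at peaks lower than in P, and in 4 of 7 at peaks above P and below L. They occurred in 0 of 28 promoters at peaks higher in PL than in L. There the C/EBP letters were found in 9 (32.1%) and AP-1 letters (TGANTCA) in 7 (25.0%), against 8.86% and 5.71% of promoters at tested peaks. NF-kB letters occurred in 28.5% of promoters at peaks higher than in P and in 26.9% at tested peaks. In all 32851 promoters the NF-kB, C/EBP and AP-1 letters occurred in 20.7%, 10.8% and 7.81%. The small classes hold few promoters, several genes of a family may share sequence, and no test was made.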

How the data were processed

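For 119751 peaks the authors deposited unnormalized read counts in each library, with the peak positions. Per the submitters' processing notes the tools were Bowtie2 2.2.9, MACS2 1.4, bedtools and featureCounts with build mm10; whether peaks were called on pooled libraries is not given in the sources used here. Columns were matched to samples by title, with 0 left unused.

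The mitochondrial peak was left out, filterByExpr (minimum count 10) dropped 286 peaks and 119464 were tested. After TMM scaling, edgeR 4.0.16 (R 4.3.3, limma 3.58.1) was run by quasi-likelihood (robust, trended dispersion, common value 0.020) over all 36 libraries, 18 groups and 18 residual degrees of freedom. P-values were adjusted by Benjamini-Hochberg within each contrast. Both contrasts must pass for a peak to count as above, below or between the singles. Peaks were assigned to genes they overlap or lie within 10 kb of, with a RefSeq GRCm38.p6 table; 259 of 262 listed genes matched, and 193 had a promoter sequence. Depth and mitochondrial share differ between libraries, and amplified reads carry no molecular identifiers, so counting intervals cover counting error only.

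Named peaks were, for each contrast and direction, the 5 with the largest fold among called peaks within 10 kb of a gene whose mean was 1 CPM or more, with PL libraries beyond the single's; the 10 largest above and below both; up to 4 per list with the lowest p; and the highest peak at 13 fixed genes. Of these some are described. Others were chosen after their values were seen: Slamf1, Saa3, Cmpk2 (chr12:26476434-26478083), Oasl1, Csrnp3, Trem1, Mrc1, Psmb10, Mpeg1 and the Ptgs2 peaks other than chr1:150103923-150104726. The comparison, its members and the lists were chosen with earlier results of these data known. Replicate numbers did not pair the libraries (correlation of deviations -0.031 between P and L, 0.001 between P and PL and -0.016 between L and PL). Replicates were checked against sampling noise (chi-square per degree of freedom 2.63 in P, 2.40 in L and 2.80 in PL). Alternatives were RLE scaling, total counts, lowess offsets, DESeq2 1.42.0, no filter, fewer libraries, a replicate block, thinning, the mitochondrial peak kept, a stricter threshold, 1 kb assignment and leaving out each library. The test was tried on simulated counts.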

Additional observations from a re-analysis of the deposited data

Results flagged for a closer look

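The effect of LPS differed with and without PAM at 8065 of 119464 peaks (6.75%) by an interaction term (PL minus P minus L plus Ctrl on the log2 scale, edgeR's quasi-likelihood test, adjusted p under 0.05), 3073 positive (2.57%) and 4992 negative (4.18%). A negative term means that the pair gained less over Ctrl than the sum of the single gains. Among the highest peaks of 13 fixed genes, 6 passed this test and all 6 terms were negative. The term was -2.02 ± 0.19 (adjusted p = 3.19e-17) near Il12b, where both singles had raised the peak and PL stood at the level of P. It was -1.42 ± 0.15 (adjusted p = 9.44e-15) at Tnf, where PL was called against neither single. It was -1.26 ± 0.21 (adjusted p = 2.60e-06) at the Il6 start and -0.90 ± 0.14 (adjusted p = 1.54e-07) at Rsad2. It was -0.82 ± 0.17 (adjusted p = 2.60e-04) at Tlr2 and -0.78 ± 0.16 (adjusted p = 2.08e-04) at Cxcl10. The Ctrl libraries, with a mitochondrial share of 61.9% and 60.1%, enter this term and no comparison within P, L and PL; the part of that share was not tested, and with total-count scaling 16509 peaks passed.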

How the results depend on the processing

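No call at a named peak changed direction under any alternative, while several uncalled differences near 0 changed sign. Of 119 calls at the peaks considered for the text, 51 held in all alternatives run for them and 68 were lost in at least 1, mostly calls against L when a library was left out; 8 of 55 uncalled comparisons passed in some alternative. At an adjusted p under 0.01, 5019 peaks differed between PL and P, 532 between PL and L and 7134 between L and P, 78 lay above both, 27 below both and 27 between, 4008 had a called interaction, and 8 inflammatory peaks were higher than in L. Thinned to the lowest depth, these numbers were 5737, 545, 7775, 91, 43, 22, 4870 and 5, with 15 resting myeloid peaks lower than in P. With total-count scaling 137 lay above both and 297 below both, 16509 had a called interaction and 12 inflammatory peaks were higher than in L. With peaks within 1 kb of a gene end, 40 interferon and 14 inflammatory peaks were higher than in P, 8 inflammatory peaks higher than in L and 9 resting myeloid peaks lower than in P. Fewer peaks per list enter under that assignment.

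With 1 library left out, counts ranged from 4799 to 10011 for PL against P, 269 to 1400 for PL against L, 7028 to 13452 for L against P, 55 to 162 above both, 18 to 121 below both, 8 to 61 between and 4843 to 7533 for the interaction. Interferon peaks higher than in P ranged from 61 to 100, inflammatory peaks higher than in P from 32 to 43 and than in L from 2 to 20, and resting myeloid peaks lower than in P from 13 to 24. The lone library of a group is then assumed to vary like the other groups. The count above both fell by over 1.5 times without L replicate 1 or 2, P replicate 1 or PL replicate 1 or 2, and that below both without L replicate 1 or 2, P replicate 2 or PL replicate 1 or 2. Blocking on the replicate number (replicate block), 10013 peaks differed between PL and P and 1359 between PL and L, and no named call changed; the numbers do not pair the libraries. Groups of 2 libraries and the depth of PL replicate 2 may limit what could be called against P and against L alike. Their part in the lower count against L was not tested.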
